A study of Mus musculus with 4 samples.

Results

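Saa1, Saa2, Saa3, Hp, Lcn2, Lbp, Ptx3, Orm1, Cebpb and Cebpd make up a set of 10 acute-phase and C/EBP genes, and they were looked up among the probe sets that carry 1 gene symbol. The arrays had such a probe set for 9 of the 10 symbols, 1 each. Of 41345 probe sets in all, 23521 carried 1 gene symbol, for 22180 named genes. Saa1 had none of its own. The genes were chosen by function, with their difference between the shYTHDF3 and shControl arrays already known, so those values are given as a description and are not tested.

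The arrays compare 4T1Br cells that had received a lentivirus with a control hairpin (shControl, 2 arrays) or one with a hairpin against YTHDF3 (shYTHDF3, 2 arrays). The 4T1Br line comes from 4T1, a mammary tumour line of the mouse, and spreads to the brain. YTHDF3 is a reader protein that binds N6-methyladenosine (m6A) in messenger RNA. Both groups were selected with puromycin and grown without any other treatment named in the labels, which give neither the age of the cultures, nor the number of hairpin sequences, nor whether cells were cloned. The comparison asks which transcripts differ in abundance when YTHDF3 is reduced. The labels do not say that arrays of a group came from separate cultures, so a p-value here covers only array-to-array spread, part or all of which may be technical. The Ythdf3 transcript itself had log2 values of 8.98 and 8.81 under the control hairpin and 8.21 and 8.16 under its own hairpin, which is 61.1% of the shControl level and checks the labels. Array medians lay between 4.42 and 4.47, and precision is limited by the number of arrays.

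The acute-phase response is the change in secreted proteins that follows infection, injury or cancer. Interleukin-6 family cytokines act through gp130 and STAT3, and interleukin-1 and tumour necrosis factor act through NF-kB. Both routes induce the transcription factors C/EBPβ and C/EBPδ, which bind promoters of acute-phase genes. The liver makes most of these proteins, but epithelial and tumour cells also make serum amyloid A3, lipocalin 2, haptoglobin and pentraxin 3, and in tumours they are known for attracting and shaping myeloid cells.

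RefSeq's promoter table (build GRCm38.p6) held an entry for 6 of the 10 symbols, namely Saa1, Saa2, Saa3, Lcn2, Ptx3 and Cebpb. The 250 bases before the start are printed for the serum amyloid A genes, Ptx3 and Lcn2, because C/EBP factors and their candidate targets are measured side by side here. They are in gene orientation, with capitals for each match to the C/EBP pattern TTGCNNAA on either strand.
Saa3, chr7:46715677-46715926, minus strand: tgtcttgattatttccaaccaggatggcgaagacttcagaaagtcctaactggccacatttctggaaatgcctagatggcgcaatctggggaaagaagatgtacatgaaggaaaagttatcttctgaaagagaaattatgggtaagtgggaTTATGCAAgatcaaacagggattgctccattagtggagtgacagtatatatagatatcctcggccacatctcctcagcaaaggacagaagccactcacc
Ptx3, chr3:66219637-66219886, plus strand: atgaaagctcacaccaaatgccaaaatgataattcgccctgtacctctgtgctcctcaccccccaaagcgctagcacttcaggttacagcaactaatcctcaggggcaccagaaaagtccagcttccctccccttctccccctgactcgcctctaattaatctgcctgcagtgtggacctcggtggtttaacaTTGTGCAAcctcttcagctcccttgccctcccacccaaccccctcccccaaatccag
Lcn2, chr2:32387740-32387989, minus strand: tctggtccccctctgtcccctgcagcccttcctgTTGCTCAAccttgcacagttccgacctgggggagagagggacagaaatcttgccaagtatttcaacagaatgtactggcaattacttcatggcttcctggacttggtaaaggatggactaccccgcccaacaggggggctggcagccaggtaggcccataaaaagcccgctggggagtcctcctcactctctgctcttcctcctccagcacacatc
Saa1, chr7:46742981-46743230, minus strand: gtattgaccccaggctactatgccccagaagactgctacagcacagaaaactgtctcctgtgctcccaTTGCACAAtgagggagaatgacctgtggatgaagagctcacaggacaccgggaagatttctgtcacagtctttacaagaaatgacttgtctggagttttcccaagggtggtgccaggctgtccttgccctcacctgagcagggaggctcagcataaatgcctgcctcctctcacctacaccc
Saa2, chr7:46751583-46751832, plus strand: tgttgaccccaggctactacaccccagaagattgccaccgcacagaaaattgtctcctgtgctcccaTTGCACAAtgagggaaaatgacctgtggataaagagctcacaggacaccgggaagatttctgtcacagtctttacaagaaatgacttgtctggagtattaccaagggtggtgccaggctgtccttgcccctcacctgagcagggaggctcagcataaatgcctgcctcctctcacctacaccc

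The pattern occurred once in each of these 5 windows and not in the Cebpb window, which was 81.6% G and C. Among all 32851 promoter windows of the same length in the table, 9.56% held it. The match in Saa3 spanned bases 99 to 92 before the start and read TTATGCAA. In Ptx3 it read TTGTGCAA and lay closest to the start, at bases 57 to 50. In Saa1 and Saa2 it read TTGCACAA, at bases 182 to 175 and 183 to 176. The Lcn2 match, TTGCTCAA, lay at bases 216 to 209. None of the 6 windows held the STAT pattern TTCNNNGAA or the NF-kB pattern (GGG, 2 bases of any kind, then TTTCC) on either strand; these occurred in 7.02% and 1.41% of all windows. With no such match in these windows, an overlap with the C/EBP match was not possible. A match describes letters in the window and is not evidence that a factor binds there.

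Serum amyloid A3 showed the widest difference of the 9 genes. Saa3, which encodes an acute-phase apolipoprotein made largely outside the liver, stood at 11.09 and 11.25 with the control hairpin and at 8.98 and 9.27 with the YTHDF3 hairpin, all on the deposited log2 scale. Both shYTHDF3 arrays were lower than both shControl arrays by a wide margin. The difference of group means (shYTHDF3 minus shControl) was -2.05 (limma standard error, SE, 0.13, n = 2 each), which leaves 24.2% of the shControl level, or a 4.13-fold lower signal. In RNA from a whole culture, fewer cells that express a gene and less of its RNA per cell cannot be told apart.

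The other serum amyloid A probe sets were dim. The level of background was taken as log2 4.28, under which 95% of olfactory receptor probe sets lay on average. Saa2, an acute-phase serum amyloid of the liver type, measured 3.89 and 4.68 on shControl arrays, against 3.01 and 3.02 on shYTHDF3 arrays. Only the second shControl array was above background, so its difference of -1.27 rests on values under background and no fold is given. A further probe set shared by Saa1 and Saa2 read 2.97, 2.86, 2.40 and 3.26 in the same order of arrays, under background throughout. The printed promoters of Saa1 and Saa2 were 95.6% identical over 249 aligned bases. Neither transcripts nor probe sequences were compared, so whether the Saa2 probe set also measured Saa1 was not tested.

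Among haptoglobin, pentraxin and the lipopolysaccharide-binding protein, all 3 genes read lower in shYTHDF3. Hp, whose product binds free haemoglobin, stood at 6.57 and 7.07 with the control hairpin and at 5.35 and 5.22 with the YTHDF3 hairpin. The Hp difference was -1.53 (limma SE 0.18, n = 2 each), leaving 34.6% of the shControl level. Hp had the second widest gap between arrays of one group among the 9 genes, 0.51 between the shControl arrays, which was exceeded by Saa2 at 0.79. Ptx3, a long pentraxin that recognises microbes and binds complement, measured 6.09 and 6.05 on shControl arrays, against 5.00 and 4.76 on shYTHDF3 arrays. Its shControl arrays were close together and its difference was -1.19 (limma SE 0.11, n = 2 each), leaving 43.8%. Lbp, which hands lipopolysaccharide to CD14 and Toll-like receptor 4, stood at 7.83 and 8.01 with the control hairpin and at 7.13 and 7.22 with the YTHDF3 hairpin. Its difference was narrower, -0.74 (limma SE 0.11, n = 2 each), which leaves 59.9%.

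Lipocalin 2 stood apart from these genes. Lcn2, whose product binds the siderophores by which bacteria take up iron, read 12.74 on both shControl arrays and 12.58 and 12.62 in shYTHDF3. The shYTHDF3 arrays were both lower, but the difference was -0.14 (limma SE 0.09, n = 2 each), leaving 90.7% of the shControl level. Orm1, the gene of the plasma transport protein α1-acid glycoprotein, measured 3.77 and 3.70 on shControl arrays, against 3.65 and 3.78 on shYTHDF3 arrays. Its groups overlapped and all its values were under background, so no level of Orm1 was measured. Orm1 has close copies in Orm2 and Orm3, whose means over the 4 arrays were under background too.

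The C/EBP genes differed unequally. Cebpd, whose product C/EBPδ is itself induced in the acute phase, stood at 6.06 and 6.48 with the control hairpin and at 4.33 and 4.71 with the YTHDF3 hairpin. The shYTHDF3 values were just above background. The Cebpd difference was -1.75 (limma SE 0.19, n = 2 each), leaving 29.7% of the shControl level, the second widest of the 9 genes. Cebpb, whose product C/EBPβ was first described as a nuclear factor for interleukin-6, measured 9.29 and 9.52 on shControl arrays, against 8.91 and 9.22 on shYTHDF3 arrays. The higher shYTHDF3 array was 0.075 below the lower shControl array, and the gap between the shYTHDF3 arrays was 0.30. The Cebpb difference of -0.34 (limma SE 0.14, n = 2 each) was therefore 1.12 times the larger gap within a group, against 4.25 times for Cebpd and 7.16 times for Saa3.

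**Figure D1:**
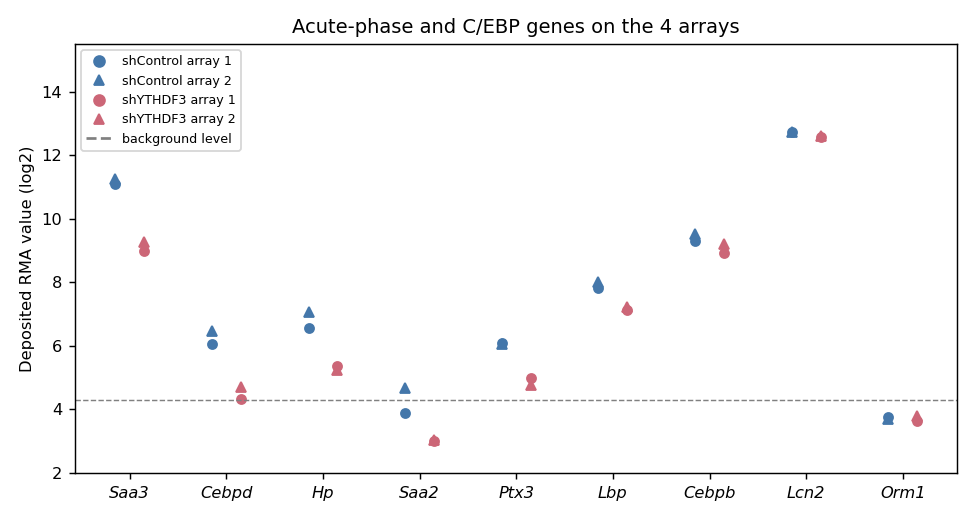
Deposited RMA value (log2) of each of the 9 genes on the 4 arrays, with circles for the first and triangles for the second array of a group, and the dashed line at the background level of 4.28. Saa3, Cebpd, Hp, Ptx3 and Lbp sit lower on both shYTHDF3 arrays, Lcn2 stays between 12.58 and 12.74, and Orm1 lies under the line on all arrays.

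The differences thus ran from -2.05 for Saa3 to -0.02 for Orm1, and their median over the 9 genes was -1.19, beside 0.01 over all 13056 genes tested. Groups did not overlap in 8 of the 9 genes, all lower in shYTHDF3, with Orm1 as the exception, but Saa2 rests on values under background. Of the 9 genes, 7 passed the filter on dim genes, and Saa2 and Orm1 did not. None of the 7 overlapped between groups, where 25.7% of all genes tested were lower without overlap and 28.3% higher. The limma fit over all genes called 5 of the 7 lower (Saa3, Cebpd, Hp, Ptx3 and Lbp) and none higher, where it called 1.45% of all genes lower and 1.28% higher; the genes were chosen with this contrast known, so nothing is read from these counts. Without either shControl array limma called 0 of the 7 and 0% of all genes lower. It called 0 of the 7 without the first shYTHDF3 array, where 0.0383% of all genes were lower, and 1 of the 7 without the second, where 0.0843% were. Over all genes tested, 0.0536% had a difference as low as that of Saa3, 0.0843% as low as Cebpd, 0.13% as low as Hp and 0.26% as low as Ptx3. The shares for Lbp, Cebpb and Lcn2 were 0.973%, 7.26% and 25.1%.

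**Figure D2:**
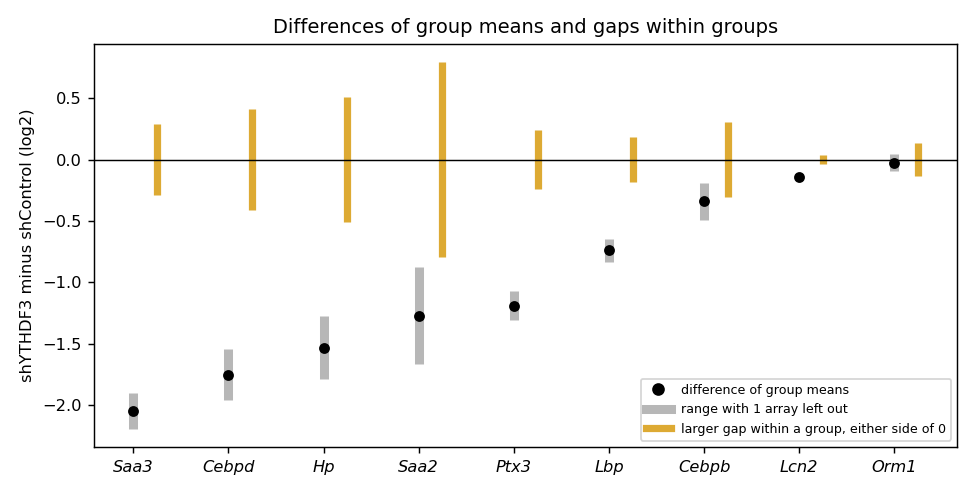
Difference of group means (shYTHDF3 minus shControl, log2) for the 9 genes as black points, with grey bars for its range when any 1 array is left out and yellow bars for the larger gap between arrays of one group, drawn either side of 0. The points of Saa3, Cebpd, Hp, Saa2, Ptx3, Lbp, Cebpb and Lcn2 lie beyond their yellow bars, Cebpb by little, and that of Orm1 does not.

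With any 1 array left out, the difference stayed below 0 for 8 of the 9 genes. It lay between -2.19 and -1.90 for Saa3, between -1.96 and -1.54 for Cebpd and between -1.78 and -1.28 for Hp. Ptx3 ranged from -1.31 to -1.07, Lbp from -0.83 to -0.65 and Lcn2 from -0.16 to -0.12. Saa2 ranged from -1.66 to -0.87 and Cebpb from -0.49 to -0.19, while Orm1 ranged from -0.09 to 0.04. Where groups do not overlap, leaving out an array cannot turn the sign.

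Within the groups the genes did not all vary the same way. The second shControl array was the higher for 6 of the 9 genes, with Ptx3, Lcn2 and Orm1 as the exceptions. The second shYTHDF3 array was the higher for 7, with Hp and Ptx3 as the exceptions. Likeness of pattern was measured as the distance between 2 genes over the 4 arrays, after each gene was centred on its own mean (0 for the same pattern, in log2 units). The closest pairs were Lcn2 and Orm1 (0.14), Lcn2 and Cebpb (0.32) and Saa2 and Hp (0.34), though Orm1 and most Saa2 values were under background. Saa3 and Cebpd were 0.35 apart and Cebpd and Hp 0.42, whereas Cebpd and Cebpb were 1.42 apart and Saa3 and Lcn2 1.92. This distance includes the difference between the groups, so it does not show how genes varied within a group.

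The tested genes outside the set with the patterns nearest to Saa3 over the 4 arrays were Cfb (distance 0.13), Ccl9 (0.21), F5 (0.28) and Ptgs2 (0.29). Nearest to Cebpd were Anxa8 (0.14), Cfb (0.28), Jag1 (0.37) and Ccn1 (0.40). Gene models and microRNA, small nucleolar RNA, olfactory and vomeronasal receptor genes were left out of both rankings. Complement factor B was on both lists. The distance includes the difference between the groups by which Saa3 and Cebpd came to be described, so it is given as a description.

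Of the other acute-phase genes that textbooks list as rising in inflammation, 31 of 38 had a probe set of their own and 11 passed the filter on dim genes. By limma, 1 of the 11 fell, none rose and 10 did not pass, beside 1.45% of all genes called lower and 1.28% higher. The median difference was -0.17. Cfb, the complement protease of the alternative pathway, stood at 7.69 and 7.89 with the control hairpin and at 5.76 and 5.94 with the YTHDF3 hairpin. It fell by 1.94 (SE 0.12, limma adjusted p = 0.00662), leaving 26.1% of the shControl level, and the call held in each of the 7 alternatives that kept all 4 arrays. It ended without the first shControl array (limma adjusted p = 0.115), the second (0.160) or the first shYTHDF3 array (0.0514), and held without the second (0.0320). At an unadjusted p under 0.05, limma had 4 of the 11 lower and 1 higher, beside 10.4% lower and 12.2% higher of all genes. This list and those below were chosen with earlier results of these data known, so nothing is read from such counts. Besides Cfb, 4 genes had such a p, and they are described here after their values were seen. Steap4, a metalloreductase induced by cytokines, differed by -0.60, and Slc39a14, the zinc and iron importer ZIP14 that interleukin-6 induces in liver, by -0.50. C4b, complement component 4, differed by -0.44, with shYTHDF3 values of 4.25 and 4.24 just under background, so it entered the test only through its shControl level. Cp, which encodes the copper-carrying ferroxidase ceruloplasmin, differed by 0.33 and was higher on both shYTHDF3 arrays, at 11.37 and 11.55, than on the shControl arrays, at 11.17 and 11.09. The metallothionein genes Mt1 and Mt2, whose products bind zinc, differed by -0.19 and -0.08. C-reactive protein, serum amyloid P and the fibrinogen chains (Crp, Apcs, Fga, Fgb and Fgg) were under background on every array.

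Acute-phase genes that fall in inflammation were nearly all dim. Of 9 listed, 8 had a probe set and 2 were tested, with a median difference of -0.05. Ahsg, the gene of fetuin-A, differed by -0.07 (SE 0.16, limma adjusted p = 0.847) and Apoa1, apolipoprotein A-I, by -0.04 (SE 0.18, limma adjusted p = 0.927). Both changed sign without the second shControl array (0.12 and 0.08) and without the second shYTHDF3 array (0.05 and 0.19).

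The other C/EBP genes were listed with the Tribbles genes, whose products bind C/EBP proteins. Limma called none of the 5 tested, and none also with an intensity trend. It had 1 lower at an unadjusted p under 0.05, beside 10.4% of all genes. Their median difference was -0.14. Ddit3, which encodes the stress-induced partner CHOP, measured 5.82 and 6.45 on shControl arrays, against 5.37 and 5.73 on shYTHDF3 arrays. It differed by -0.58 (SE 0.23, limma adjusted p = 0.209). Cebpg, a dimer partner without an activation domain, differed by -0.17 (SE 0.09, limma adjusted p = 0.342). Cebpa was under background on all arrays.

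**Figure D3:**
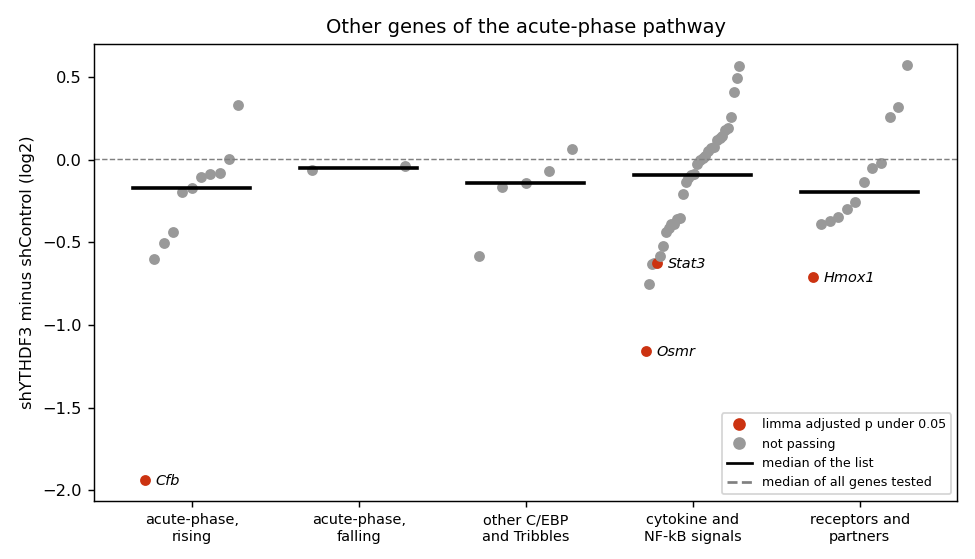
Difference between the groups (shYTHDF3 minus shControl, log2) for every tested gene of the 5 lists around the acute-phase response, with red points for limma adjusted p under 0.05, black bars for list medians and the dashed line for the median of all genes. Only Cfb, Osmr, Stat3 and Hmox1 are red, all below 0, and the list medians lie between -0.20 and -0.05.

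Of 41 cytokines, receptors and intracellular factors that drive or restrain acute-phase genes, 37 had a probe set and 34 were tested. Limma called 2 lower, none higher and left 32, beside 1.45% of all genes called lower and 1.28% higher. The median difference was -0.09. Osmr, the receptor chain for oncostatin M, stood at 9.42 and 9.17 with the control hairpin and at 8.08 and 8.19 with the YTHDF3 hairpin, so it fell by 1.16 (SE 0.12, limma adjusted p = 0.0232). Stat3, the transcription factor activated by interleukin-6 family cytokines, measured 9.87 and 9.94 on shControl arrays, against 9.24 and 9.32 on shYTHDF3 arrays, so it fell by 0.62 (SE 0.09, limma adjusted p = 0.0381). Both calls ended without the filter on dim genes (limma adjusted p = 0.0503 and 0.0942), with the replicate number as a block (0.0631 and 0.0836) and with any 1 array left out, where the p ran from 0.115 to 0.160 for Osmr and from 0.158 to 0.187 for Stat3.

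The signalling genes went both ways, with more of them lower at an unadjusted p under 0.05. At that threshold limma had 13 of the 34 lower, Osmr and Stat3 among them, and 3 higher, beside 10.4% and 12.2% of all genes. An intensity trend in limma's variance model raised the shares called over all genes to 5.33% lower and 5.59% higher. With it 12 of the 34 were called lower, again with Osmr and Stat3, and 3 higher. The following genes did not pass without that trend and were picked after their values were seen. Among the ligands, Lif differed by -0.63 and Il1a by -0.63. Il11 measured 4.84 and 5.21 on shControl arrays, against 4.52 and 4.03 on shYTHDF3 arrays, and its shYTHDF3 mean was under background, so it entered the test only through its shControl level. Il6 read at most 4.18, under background, on every array. Socs3, the feedback inhibitor of gp130 signalling that STAT3 induces, differed by -0.52. The NF-kB regulator genes Tnfaip3 and Nfkbiz differed by -0.58 and -0.35, whereas Nfkbia, another of them, differed by -0.09. The interleukin-1 receptor chains Il1r1 and Il1rap differed by -0.36 and -0.44. Ptpn11, Bcl3 and Hnf4a, also lower at an unadjusted limma p under 0.05, differed by -0.41, -0.39 and -0.39. In the other direction, the kinase genes Tyk2 and Irak1 differed by 0.57 and 0.41, and Pias3, which encodes an inhibitor of STAT3, by 0.49. Il6ra, which encodes the interleukin-6 receptor chain, and the NF-kB subunit gene Rela differed by 0.13 and 0.14.

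Receptors and binding partners of the acute-phase proteins were listed as well, and 12 of 18 were tested, with a median of -0.20. Limma called 1 lower and none higher, beside 1.45% and 1.28% of all genes, and 11 did not pass. At an unadjusted p under 0.05 it had 3 lower and 2 higher, beside 10.4% and 12.2% of all genes. The 3 lower were Hmox1, Tlr4 and Mmp9, the last with a difference of -0.39. The direction of the calls depended on the scaling, with none lower and 1 higher on repeated quantile normalization and 1 lower and 1 higher on a common median. Hmox1, the haem-degrading enzyme that acts downstream of haptoglobin-haemoglobin uptake, stood at 5.64 and 5.92 with the control hairpin and at 5.05 and 5.10 with the YTHDF3 hairpin, so it fell by 0.71 (SE 0.12, limma adjusted p = 0.0478). That call ended on repeated quantile normalization (limma adjusted p = 0.0541), without the filter (0.110), with the replicate number as a block (0.0798) and with any 1 array left out (0.157 to 0.206). In the other direction, Itgb2, a leukocyte integrin chain, stood at 9.10 and 9.22 with the control hairpin and at 9.80 and 9.67 with the YTHDF3 hairpin, a difference of 0.57 (SE 0.10, limma adjusted p = 0.0527). P2rx7, an ATP-gated channel, differed by 0.32 and was also higher on both shYTHDF3 arrays (limma adjusted p = 0.127). Itgb2, P2rx7 and the receptor partners of lipopolysaccharide-binding protein, picked after their values were seen, did not pass. The lipopolysaccharide partners were Cd14 at -0.30, Tlr4 at -0.35 and Ly96 at -0.02. Slc22a17, a lipocalin 2 receptor gene, differed by -0.05 and Cd163, the haptoglobin-haemoglobin receptor gene, was near or under background on all arrays.

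Hepatocytes, neutrophils and macrophages also make or carry acute-phase proteins, so their markers were read on the same arrays. Of 8 hepatocyte markers, 5 were under background on all arrays, Alb among them, and the summed signal of the 8 on the linear scale was 148 and 152 in shControl and 144 and 126 in shYTHDF3. Of 10 neutrophil markers, 6 were under background on all arrays, including Ly6g, S100a9 and Camp, and none was above it on all arrays. The widest difference on this list was that of S100a8, at -1.01. Its shYTHDF3 arrays (3.23, 3.20) were both below its shControl arrays (4.59, 3.85). Only the first shControl array was above background for S100a8, so its difference rests on values under background. S100a9 and Elane went the other way without overlap, with differences of 0.26 and 0.34. The neutrophil sum was 150 and 152 in shControl and 144 and 148 in shYTHDF3. Of 8 macrophage markers, 4 were under background on all arrays, including the leukocyte gene Ptprc and the macrophage gene Adgre1. Cd68 and Cd14 were above background, and Cd68 differed by -0.72 (limma adjusted p = 0.0547). The macrophage sum was 615 and 646 in shControl and 456 and 525 in shYTHDF3. The part of Cd68-bearing or Cd14-bearing cells in the differences was not tested.

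Markers of stroma and of the epithelium moved as well. Of 8 fibroblast markers, 7 were tested. Limma called 2 lower and none higher, beside 1.45% and 1.28% of all genes. The differences were -2.65 for Dcn and -0.61 for Pdgfra (limma adjusted p = 0.00474 and 0.0471). The other 5 tested did not pass. Thy1 was lower on both shYTHDF3 arrays, at -0.44, and Col3a1 and Col1a2 differed by -0.23 and -0.05. Pdgfrb was higher on both shYTHDF3 arrays, at 0.21, and Col1a1 differed by 0.10. Lum was under background on all arrays. The fibroblast sum was 1052 and 1012 in shControl and 639 and 652 in shYTHDF3, and its part in the differences was not tested. Of 6 adipocyte markers, 5 had a probe set, 4 of them under background on all arrays, with a sum of 84 and 82 in shControl and 76 and 85 in shYTHDF3. Among epithelial markers, Krt8 and Krt18, keratins of simple epithelia, were above background on every array, at 10.04 to 10.45 and 10.45 to 11.13. Each was higher on both shYTHDF3 arrays, with differences of 0.31 for Krt8 and 0.57 for Krt18. Neither passed (limma adjusted p = 0.151 and 0.0527). Epcam and Krt14 were under background on all arrays and Cdh1 read only 4.37 to 4.61. These markers thus met the label of a breast cancer line only in part. Of 7 epithelial markers with a probe set, 5 were tested and limma called only Krt7, beside 1.45% of all genes called lower and 1.28% higher. Krt7 rose from 5.55 and 5.58 in shControl to 6.99 and 7.15 in shYTHDF3 (limma adjusted p = 0.00816). Krt19, a keratin of the same list, went the other way, from 6.86 and 6.63 to 6.30 and 6.13, and did not pass (limma adjusted p = 0.0816). The epithelial sum was 2665 and 2879 in shControl and 3904 and 3684 in shYTHDF3.

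**Figure D4:**
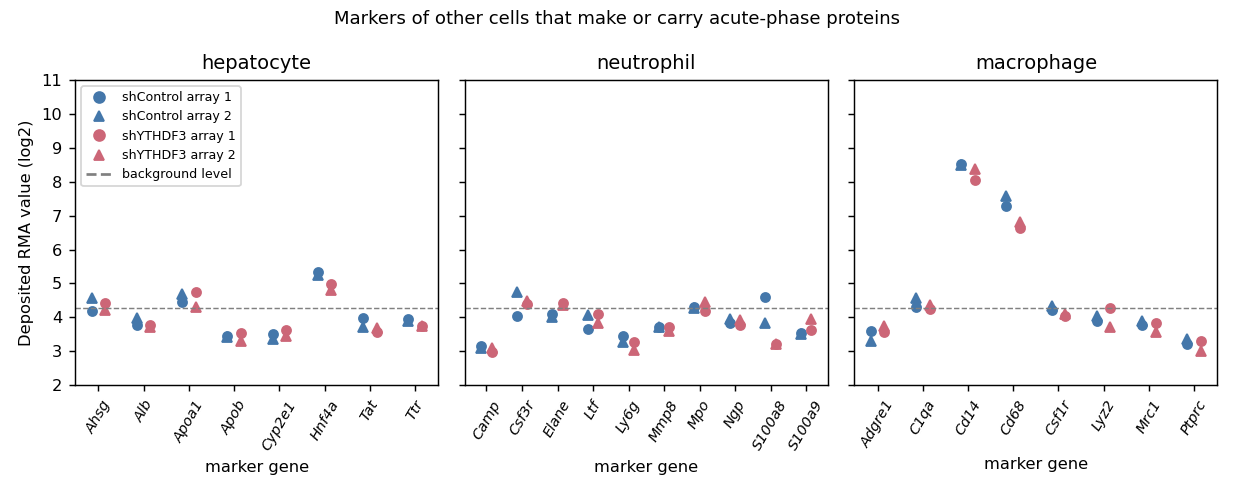
Deposited RMA values (log2) of hepatocyte, neutrophil and macrophage marker genes on the 4 arrays, drawn as in the plot of the 9 genes, with the dashed line at the background level of 4.28. Most markers lie near or under the line, while Cd14, Cd68 and, by less, Hnf4a lie above it, each lower on both shYTHDF3 arrays.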

How the data were processed

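Total RNA from 4 samples (2 shControl, 2 shYTHDF3, grouped by their titles) was labelled with biotin and read on Affymetrix arrays, per the labels' protocols. The deposited values come from RMA, which the submitters' processing notes name, and were taken as log2 from their range because no source used here gives the log base. RMA equalises the arrays, so a shift of most genes one way would not be seen. Of 41345 probe sets, 23521 had 1 gene symbol, 1814 several and 16010 none; 23328 matched a RefSeq gene by Entrez identifier. A gene took its probe set with the highest mean (1082 of 22180 genes had several). Genes with a mean above log2 4.28, the 95th percentile of 1108 olfactory receptor probe sets, were tested (13056; 9124 were not), with limma 3.58.1 in R 4.3.3, two-sided, adjusted by Benjamini-Hochberg over all of them at 0.05. The members and lists were chosen with earlier results of these data known. Named genes were all members and, in each list, at most 3 called higher and 3 called lower (the widest), or the 2 widest differences where none was called. Ythdf3 and the 4 genes nearest to Saa3 and to Cebpd were added, the nearest genes being ranked without gene models and the gene classes given above. Depth does not apply to arrays. Of the steps, only the limma fit without trend or block was tested on simulated data. Alternatives were other filters, normalizations and probe set rules, an intensity trend, a replicate block and leaving out each array. Promoters came from RefSeq (GRCm38.p6), and array coordinates were not used here. Plots used matplotlib 3.10.9 under Python 3.11.15.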

Additional observations from a re-analysis of the deposited data

How the results depend on the processing

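With 2 arrays a group the counts of calls depend on the settings. The sign of the difference held in every alternative for 8 of the 9 genes, Orm1 being the exception, but few alternatives could have turned it. Filters, the trend, the block and averaging of probe sets leave these differences unchanged. Leaving out an array cannot turn the sign where groups do not overlap. Nothing is therefore read from the kept signs. The number of genes called by limma, 356, became 43 without the filter on dim genes, 1426 with an intensity trend, 51 with the replicate number as a block and 0 to 12 with 1 array left out. The median difference of the 9 genes, -1.19, ran from -1.26 to -0.87 with 1 array left out, the latter without the second shControl array. Both ends of this range are the difference of Saa2, which rests on values under background. Among the other acute-phase genes the 1 call became 4 with the trend and 0 to 1 with 1 array left out. The 2 signalling calls became 0 without the filter, 15 with the trend, 0 with the replicate block and 0 to 0 with 1 array left out. The 1 call among receptors and partners was lower; it became 2 (1 lower, 1 higher) with a filter at the median probe set, with a common median and when probe sets of a gene were averaged, 4 (2 lower, 2 higher) with the trend, 1 higher on repeated quantile normalization, 0 without the filter, 0 with the block and 0 to 0 with 1 array left out. The differences of Ahsg (-0.25 to 0.12 with 1 array left out) and Apoa1 (-0.27 to 0.19) reversed, to 0.12 and 0.08 without the second shControl array and to 0.05 and 0.19 without the second shYTHDF3 array. Leaving out an array removes residual degrees of freedom, so lost calls do not show how far a result rests on it. The cause of the other shifts was not tested. Same-numbered arrays deviated with a correlation of -0.07 over the genes tested. This value cannot show whether they share more than a number, which was not tested. With the block limma called 3 of the 7 members tested, and 0.276% of all genes, lower; without the filter it called 2 of 9, and 0.131%. Low signal limits Saa2 and Orm1, which were not above background.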
